A study of Mus musculus with 28 samples.

Results

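The CD300 receptors and the paired inhibitory receptors PIR-B and PILR were followed in 4 populations of dendritic cells sorted from mouse spleen. The set holds 9 genes, Cd300a, Cd300c, Cd300e, Cd300lb, Cd300ld, Cd300lf, Pirb, Pilra and Pilrb1, each found by its symbol among 24421 genes, and all 9 were among the 13159 genes that passed a filter on low counts. Several passed it through 1 or a few populations only: Cd300lb, Cd300ld, Pilra and Pilrb1 reached the filter's level in all 8 libraries of conventional type 2 dendritic cells and in few or none of the type 1 cells. Cd300e reached it in all 8 libraries of each conventional type and in few or none of the plasmacytoid cells. RNA was measured by bulk RNA-seq in 8 libraries of conventional type 1 dendritic cells (cDC1_WT, sorted as CD24+), 8 of conventional type 2 dendritic cells (cDC2_WT, CD172a+) and 8 of plasmacytoid dendritic cells (pDC_WT), all from Irf8fl/fl mice without Cre, and in 4 libraries of plasmacytoid dendritic cells from Irf8fl/fl Itgax-cre mice (pDC_TG). All mice were untreated C57Bl/6 animals between 6 and 12 weeks old and all carried the loxP-flanked Irf8 gene. Itgax encodes CD11c, so Cre is made in cells that use the regulatory sequence of that gene, and a deletion limited to pDC is not part of this model. Levels are gene counts scaled to library size by the TMM method (CPM), given as mean ± SD with n = 8 for each WT group and n = 4 for pDC_TG.

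Members of these families come in pairs with opposite signals. Inhibitory members such as CD300a, CD300f (the product of Cd300lf), PIR-B and PILRα carry tyrosine motifs (ITIMs) in long cytoplasmic tails and recruit phosphatases such as SHP-1, whereas the others have short tails and signal through the adaptors DAP12 or the Fc receptor γ chain, which carry activating motifs (ITAMs). CD300 receptors bind lipids exposed on dying cells and PIR-B binds MHC class I, and the balance of the 2 arms sets the threshold at which myeloid cells respond. In pDC, receptors that signal through ITAM adaptors are known to dampen interferon production, so the label "activating" describes the motif and not the outcome in that cell.

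Of the 9 genes, 6 are annotated in 1 stretch of mouse chromosome 11 on build GRCm38 (mm10) and the others on chromosomes 7 and 5; all are protein coding. Cd300a lies at chr11:114890041-114904654 on the plus strand, and the others on the minus strand: Cd300lb at chr11:114922781-114934386, Cd300ld at chr11:114982274-114989922, Cd300e at chr11:115051917-115062177 and Cd300lf at chr11:115116214-115133992. Pirb lies at chr7:3711409-3720391, Pilra at chr5:137821952-137836281 and Pilrb1 at chr5:137852147-137858106. The symbol Cd300c names the gene at chr11:114956116-114969157 in one annotation and is an earlier symbol of Cd300c2, at chr11:114996721-115001880, in another. The count files hold no row named Cd300c2 and do not name the annotation behind them; which of these genes the row Cd300c counts was not settled.

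The promoters of 5 of the genes are shown here, as the 250 bases before the RefSeq transcription start on GRCm38.p6, 5′ to 3′ on the strand of the gene. Capitals mark matches, on either strand, to 2 patterns: GAGGAAGT, at which the ETS factor PU.1 of myeloid cells binds, and the TATA box TATAAA, the second added after the sequences were seen. Cd300lb and Cd300ld were high in cDC2, Pirb was present in all 4 populations, and Pilra and Pilrb1 are an inhibitory and activating pair.
Cd300lb (chr11:114934372-114934621, minus strand): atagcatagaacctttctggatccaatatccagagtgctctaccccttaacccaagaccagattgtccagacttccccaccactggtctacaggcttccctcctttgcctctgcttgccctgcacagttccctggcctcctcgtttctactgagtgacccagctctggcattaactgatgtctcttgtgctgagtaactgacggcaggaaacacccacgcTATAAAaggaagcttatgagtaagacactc
Cd300ld (chr11:114989887-114990136, minus strand): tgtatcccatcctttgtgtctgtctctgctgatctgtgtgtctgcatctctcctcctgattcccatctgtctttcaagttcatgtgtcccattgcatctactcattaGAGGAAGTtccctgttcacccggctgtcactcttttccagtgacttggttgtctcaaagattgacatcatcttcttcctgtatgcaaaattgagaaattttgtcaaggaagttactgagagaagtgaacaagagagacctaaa
Pirb (chr7:3720383-3720632, minus strand): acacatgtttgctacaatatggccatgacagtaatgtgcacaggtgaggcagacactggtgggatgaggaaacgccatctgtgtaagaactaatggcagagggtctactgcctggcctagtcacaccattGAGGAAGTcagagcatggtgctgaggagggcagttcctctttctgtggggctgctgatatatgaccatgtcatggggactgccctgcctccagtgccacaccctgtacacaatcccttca
Pilra (chr5:137836279-137836528, minus strand): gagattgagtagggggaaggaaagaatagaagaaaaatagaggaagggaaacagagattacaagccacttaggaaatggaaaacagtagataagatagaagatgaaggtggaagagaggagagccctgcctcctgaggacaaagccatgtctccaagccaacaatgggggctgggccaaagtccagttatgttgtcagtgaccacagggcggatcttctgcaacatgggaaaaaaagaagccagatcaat
Pilrb1 (chr5:137858050-137858299, minus strand): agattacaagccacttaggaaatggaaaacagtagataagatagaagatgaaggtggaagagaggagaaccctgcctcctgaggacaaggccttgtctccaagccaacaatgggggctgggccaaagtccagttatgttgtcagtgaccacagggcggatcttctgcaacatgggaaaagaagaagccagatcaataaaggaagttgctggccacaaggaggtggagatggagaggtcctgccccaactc

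The Pilra and Pilrb1 promoters were near copies of each other, with 192 of 196 aligned bases identical (98.0%) at an offset of 54 bases, and the promoter of their neighbour Pilrb2 shared 195 of 196 aligned bases with Pilra (99.5%). Outside this cluster the most alike pair reached 37.8%. The PU.1 pattern lay 143 bases before the start of Cd300ld and 120 before that of Pirb. Cd300lb held a TATA box 30 bases before its start and Cd300lf 1 on the other strand at 28 bases, while Cd300a, Cd300e, Pilra, Pilrb1 and the gene that the RefSeq table names Cd300c held neither pattern. Among other patterns searched, the E-box CACCTG, found in 17.22% of promoters, lay 67 bases before the start of the latter and 210 before that of Pirb, and TTGCGNAA of C/EBP and TGANTCA of AP-1 (0.67% and 6.75% of promoters) matched in none of the 9. Over 32851 promoter windows of that length, 2.44% held the PU.1 pattern and 12.37% the TATA box. These are matches of letters and say nothing of binding.

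Libraries held 23592099 to 30152305 gene counts in cDC1_WT, 20696141 to 29351715 in cDC2_WT, 17299285 to 30787679 in pDC_WT and 22805201 to 28725550 in pDC_TG. Irf8, the gene flanked by loxP sites, averaged 6144 ± 459 CPM in pDC_WT and 1461 ± 257 CPM in pDC_TG, 23.8% of the WT level (exact two-sided permutation test over 495 splits, p = 0.00404, the smallest it can give). These counts include exons outside a deleted part. The pDC markers summed to between 10325 and 13409 CPM in pDC_WT and between 10092 and 13377 CPM in pDC_TG. All 10 were detected in both. Of these, 5 had a higher mean in pDC_TG, among them Ly6d (2904 CPM in pDC_WT and 4256 CPM in pDC_TG) and Cox6a2 (376 and 1003 CPM). The other 5 had a lower mean, among them Siglech (2298 and 1454 CPM) and Klk1 (960 and 217 CPM). Each of the cDC1 and cDC2 lists was highest in its own sort. The cDC1 list summed to between 484 and 582 CPM in pDC_WT and between 651 and 974 CPM in pDC_TG. Of its 10 markers, 4 had a higher mean in pDC_TG, among them Cd8a (267 and 660 CPM). The other 6 had a lower mean, among them Clec9a (91.6 and 6.59 CPM). Among lists for other cells, summed NK cell markers ran from 132 to 322 CPM in pDC_WT and from 534 to 769 CPM in pDC_TG, and T cell markers from 644 to 912 and from 1022 to 1390 CPM. The NK cell sum was mostly Klrd1, at 226 and 676 CPM on average. Prf1 was at 0.136 and 1.15 CPM, and Ncr1, Klrb1c, Eomes and Gzmb were below 0.16 CPM in both groups. The T cell sum was mostly Cd8b1, at 752 and 1151 CPM. Lck was at 4.12 and 66.4 CPM, and Cd3e, Cd3d and Cd3g were below 0.5 CPM. B cell and plasma cell markers ran from 233 to 424 CPM in pDC_WT and from 154 to 259 CPM in pDC_TG. Of these 8 markers, 6 had a higher mean in pDC_TG, among them Jchain (23.1 and 47.2 CPM) and Cd79b (83.4 and 90.9 CPM). The other 2, Mzb1 (197 and 40.1 CPM) and Cd79a (5.51 and 3.24 CPM), had a lower mean. Neutrophil markers stayed at or below 7.35 CPM in 3 pDC_TG libraries and reached 203 CPM in replicate 4. The part of these lists in the results below was not tested. Tests are edgeR quasi-likelihood tests over all 28 libraries, p-values were adjusted by the Benjamini-Hochberg method over all 13159 tested genes, and a gene is called at an adjusted p below 0.05. Changes are log2 fold changes (log2FC), and SE is their standard error from the model.

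**Figure D1:**
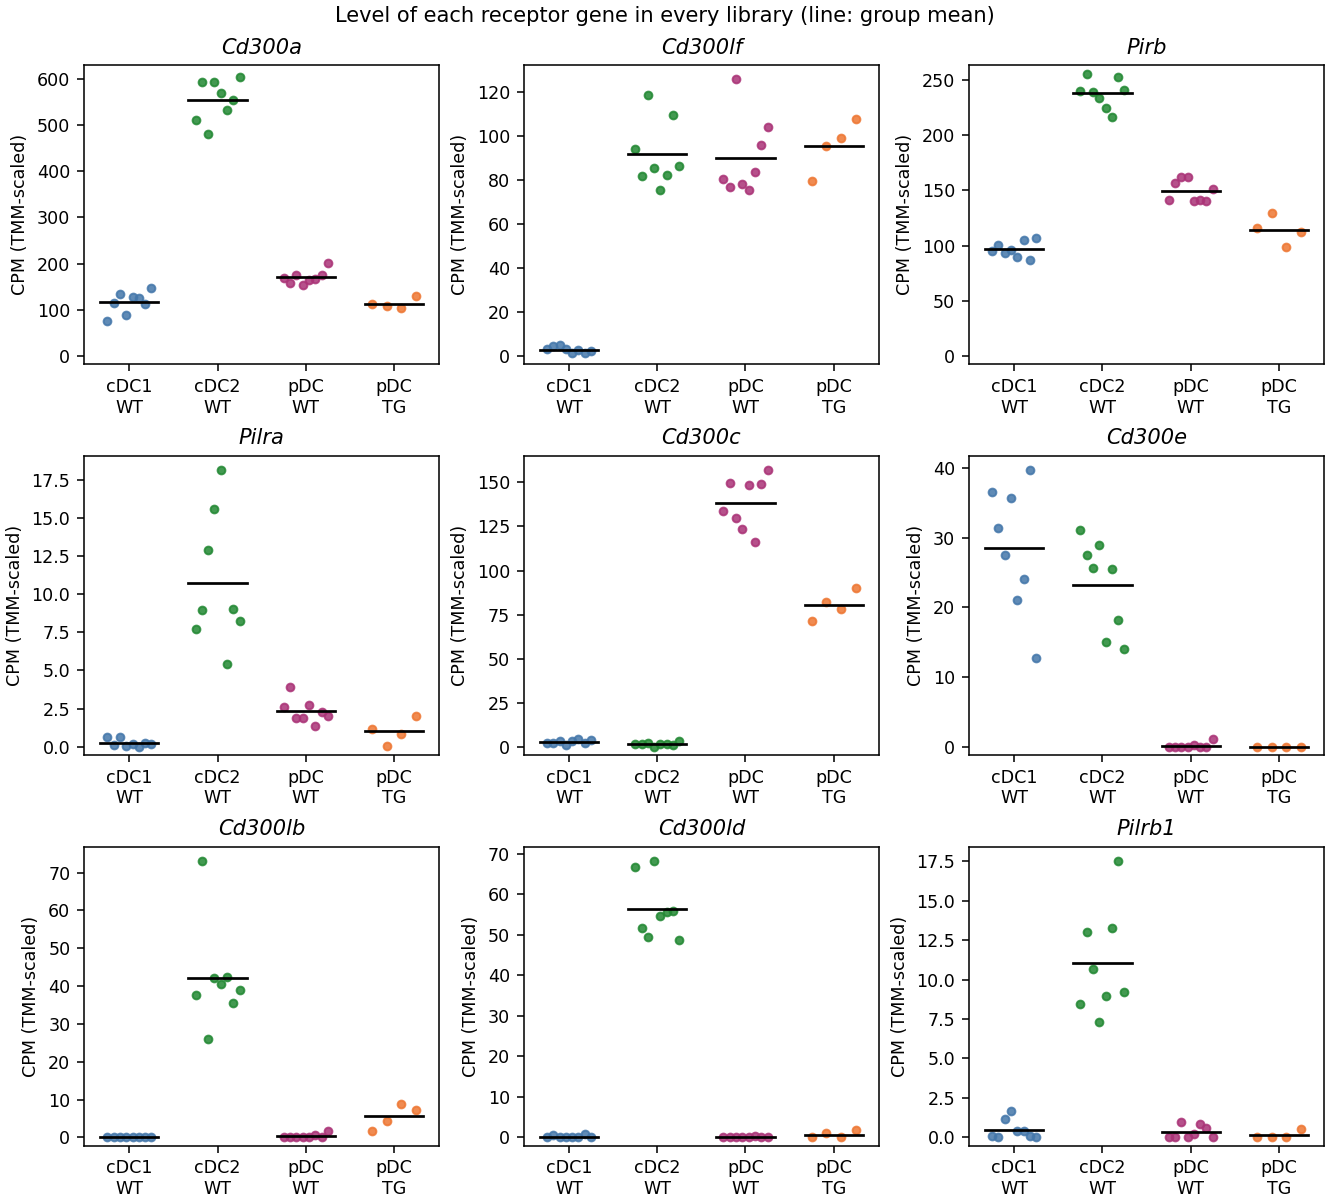
CPM of each of the 9 receptor genes (y axis, a separate linear scale per panel) in every library of the 4 populations (x axis), with a line at the group mean. Cd300c was high in both pDC groups only, Cd300e in both cDC groups only, and Cd300lb and Cd300ld had their highest values in cDC2_WT.

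Among the WT populations, cDC2 held the highest mean of Cd300a, Cd300lb, Cd300ld, Pirb, Pilra and Pilrb1, pDC that of Cd300c, and cDC1 that of Cd300e, though for Cd300e not beyond the spread; Cd300lf was alike in cDC2 and pDC. In sorted bulk RNA, fewer cells of a type and less RNA per cell cannot be told apart. Against pDC_WT, 7 genes were higher in cDC2_WT, 1 was lower and 1 was not called, where 57.1% of all tested genes were called in either direction, 28.8% as higher and 28.3% as lower. For 8 of the 9 the libraries did not overlap, against 29.4% of all tested genes. The median log2FC of the 9 was 2.20 beside -0.01 for all tested genes. Against cDC2_WT, cDC1_WT had 7 genes lower, 1 higher and 1 not called, with a background of 46.2% called, 23.4% as lower and 22.8% as higher, and a median log2FC of -4.50 beside -0.01. For 7 of the 9 the libraries did not overlap, against a background of 21.2%. Against pDC_WT, cDC1_WT had 6 genes lower, 1 higher and 2 not called, against a background of 60.9% called, 30.3% as lower and 30.6% as higher, with a median of -0.63 beside -0.03. For 6 of the 9 these libraries did not overlap, against a background of 30.3%. These 3 comparisons use the same WT libraries, so they are not independent of each other. Cd300lb, Cd300ld and Pilrb1 reached the filter's level in all 8 cDC2_WT libraries. In pDC_WT they reached it in 2, 1 and 3 libraries, and in cDC1_WT in 0, 2 and 2. Genes that meet the filter mainly through cDC2_WT tend to be higher there. The counts, overlaps and medians that involve cDC2_WT are therefore given as a description. Cd300e reached the level in all 8 libraries of cDC1_WT and of cDC2_WT but in 1 pDC_WT library. It was the 1 gene called higher in cDC1_WT than in pDC_WT. With these 2 groups fitted alone, 6 of the 9 genes were tested, of which 1 was higher and 5 were lower. The counts of cDC1_WT against pDC_WT are thus a description too.

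Among the inhibitory receptors, Cd300a, whose product recognises phosphatidylserine and phosphatidylethanolamine on dying cells, was at 554 ± 44.3 CPM in cDC2_WT, with a lowest library of 479.9, a median of 562 and a highest of 603 CPM. In pDC_WT the lowest, median and highest libraries were at 153, 168 and 201 CPM, and in cDC1_WT at 74.8, 120.1 and 148 CPM. All 3 WT groups were apart from each other without overlap. The fit gave a log2FC of 1.71 (SE 0.10, adjusted p = 2.39e-15) for cDC2_WT against pDC_WT and of -0.56 (SE 0.10, adjusted p = 1.39e-05) for cDC1_WT against pDC_WT. The second value was not called when the test asked for a change beyond 1.5-fold (adjusted p = 0.609).

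Pirb, whose product restrains myeloid cells on contact with MHC class I, followed the same order at lower contrast. Its libraries ran from 217 to 255 CPM in cDC2_WT with a median of 240.0, from 140.4 to 163 CPM in pDC_WT with a median of 146, and from 86.5 to 107 CPM in cDC1_WT with a median of 95.3. No 2 of these groups overlapped. The log2FC was 0.67 (SE 0.06, adjusted p = 8.55e-11) for cDC2_WT and -0.63 (SE 0.06, adjusted p = 3.1e-10) for cDC1_WT, each against pDC_WT, and neither was called beyond 1.5-fold. By the annotation used here, 26.9% of the 75-base windows of Pirb also occur in other genes, mainly Gm14548 and the activating relative Pira2, so its counts are uncertain to that extent.

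Cd300lf, an inhibitory receptor for ceramide and phosphatidylserine, had a different pattern, with like levels in cDC2 and pDC and almost none in cDC1. It was at 91.5 ± 15.0 CPM in cDC2_WT and 89.9 ± 17.7 CPM in pDC_WT, with libraries from 75.2 to 118 and from 75.3 to 126 CPM that overlapped nearly whole. The log2FC was 0.03 (95% interval of 1.96 SE either way, from -0.33 to 0.38, adjusted p = 0.919), and its sign changed with the scaling. In cDC1_WT the gene averaged 2.81 ± 1.36 CPM, from 1.13 to 5.09 CPM, or 3.12% of the pDC_WT level (log2FC -5.00, SE 0.22, adjusted p = 2.23e-18).

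Pilra, the inhibitory member of the PILR pair, which binds sialylated O-glycoproteins, was low everywhere and highest in cDC2_WT at 10.7 ± 4.36 CPM, from 5.39 to 18.1 CPM. It was at 2.33 ± 0.773 CPM in pDC_WT, from 1.37 to 3.92 CPM, and at 0.249 ± 0.244 CPM in cDC1_WT, from 0 to 0.641 CPM. None of the 3 groups overlapped (cDC2_WT against pDC_WT log2FC 2.20, SE 0.50, adjusted p = 0.000358, and cDC1_WT against pDC_WT -3.20, SE 0.54, adjusted p = 8.08e-06). Pilra shares 15.1% of its exonic bases with the overlapping gene Zcwpw1, and since the reads carry no strand, reads of those bases cannot be assigned to either gene.

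Among the receptors that signal through adaptors, Cd300c was high in pDC and near absent from the conventional cells. It was at 138 ± 14.7 CPM in pDC_WT, with a lowest library of 116, a median of 141 and a highest of 157 CPM. It was at 2.67 ± 1.23 CPM in cDC1_WT and 1.49 ± 0.967 CPM in cDC2_WT, which made pDC_WT 51.8-fold and 93.0-fold higher (log2FC of cDC1_WT and cDC2_WT against pDC_WT -5.69, SE 0.33, and -6.54, SE 0.35; adjusted p = 3.88e-15 and 6e-16). Per kilobase of annotated exon, it was the most abundant of the 9 genes in pDC_WT, at 130.0 ± 13.8 CPM per kb, ahead of Cd300a at 35.9 ± 3.10, Pirb at 33.4 ± 2.21 and Cd300lf at 17.5 ± 3.43 CPM per kb. With the exon length of Cd300c2 in its place, the value was 109 CPM per kb. The called difference between cDC1_WT and cDC2_WT (log2FC 0.85, SE 0.32, adjusted p = 0.0301) rested on libraries that overlapped, and it was lost when any 1 of 6 of them was left out, namely cDC1_WT replicates 3, 5, 6 or 8 or cDC2_WT replicates 5 or 7, with adjusted p up to 0.0855.

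Cd300e, which pairs with DAP12 and is known as a receptor of monocytes, was the reverse. It was at 28.6 ± 9.07 CPM in cDC1_WT, from 12.7 to 39.8 CPM, and at 23.2 ± 6.56 CPM in cDC2_WT, from 14.1 to 31.1 CPM, and these did not differ beyond their spread (log2FC 0.30, 95% interval from -0.59 to 1.19, adjusted p = 0.634). Of the 8 pDC_WT libraries 6 held no count, and the 33 counts of the group fell in replicate 8 with 28 and replicate 5 with the rest. Of the 9 genes, it alone was called higher in cDC1_WT than in pDC_WT (log2FC 7.43, SE 0.66, adjusted p = 2.1e-10; 9.74 without pDC_WT replicate 8). Across the 28 libraries log2(CPM + 1) of Cd300e and Cd300c had a Pearson correlation of -0.971, a description in which the points share the sort and the scaling.

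Cd300lb and Cd300ld were near exclusive to cDC2 among the WT sorts. Cd300lb encodes CD300b, which pairs with DAP12 and has TIM-1 and phosphatidylserine among its ligands. It ran from 25.9 to 73.2 CPM in cDC2_WT with a median of 39.7, and held 6 counts over the 8 cDC1_WT libraries and 72 counts over the 8 pDC_WT libraries, of which 48 were in replicate 8. Cd300ld, which pairs with the Fc receptor γ chain, ran from 48.8 to 68.4 CPM in cDC2_WT with a median of 55.2, and held 35 counts over cDC1_WT and 14 over pDC_WT. Against pDC_WT, cDC2_WT was higher by a log2FC of 6.88 (SE 0.69, adjusted p = 9.37e-10) for Cd300lb and 9.58 (SE 0.85, adjusted p = 6.41e-11) for Cd300ld. The size depended on 1 pDC_WT library each: Cd300lb was at 8.21 without replicate 8 and Cd300ld at 11.35 without replicate 6. Monocyte and macrophage markers, whose part in these levels was not tested, summed to between 5801 and 8790 CPM in cDC2_WT and between 2438 and 4090 CPM in cDC1_WT. Most of both sums was Nr4a1, at 4878 and 2436 CPM on average. The defining marker Adgre1 was at 370.4 ± 30.9 and 3.27 ± 1.57 CPM. Of the 14 markers, 9 were called lower and 2 higher in cDC1_WT (23.4% and 22.8% of all tested genes). Vcam1 (32.5 and 87.7 CPM) and Ly6c2 (1.17 and 6.12 CPM) had the higher mean in cDC1_WT. Cd300lb was called lower in cDC1_WT than in pDC_WT (log2FC -3.28, SE 1.01, adjusted p = 0.0063), at 0.0331 ± 0.0407 against 0.349 ± 0.635 CPM, but not without pDC_WT replicate 8 (log2FC -1.95, adjusted p = 0.076). For Cd300ld the same comparison was not called (log2FC 1.38, adjusted p = 0.267), but it was without pDC_WT replicate 6 (3.13, adjusted p = 0.0404).

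Pilrb1, the DAP12-coupled partner of Pilra, had a level of 11.0 ± 3.38 CPM in cDC2_WT, from 7.28 to 17.5 CPM. It was at 0.483 ± 0.619 CPM in cDC1_WT and 0.336 ± 0.407 CPM in pDC_WT, which overlapped, and both were apart from cDC2_WT (log2FC of cDC1_WT against cDC2_WT -4.50, SE 0.93, adjusted p = 0.000192; cDC2_WT against pDC_WT 5.00, SE 0.96, adjusted p = 4.97e-05). The first of these was not called with WT replicates 1 to 4 alone (adjusted p = 0.0738) and was -5.12 without cDC1_WT replicate 4. Beside the near-identical promoters shown above, 12.4% of its 75-base windows recur in other genes, mostly in Pilrb2. The pair did not keep 1 ratio: in pDC_WT, Pilra was above 1 CPM in all 8 libraries and Pilrb1 in none of them.

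**Figure D2:**
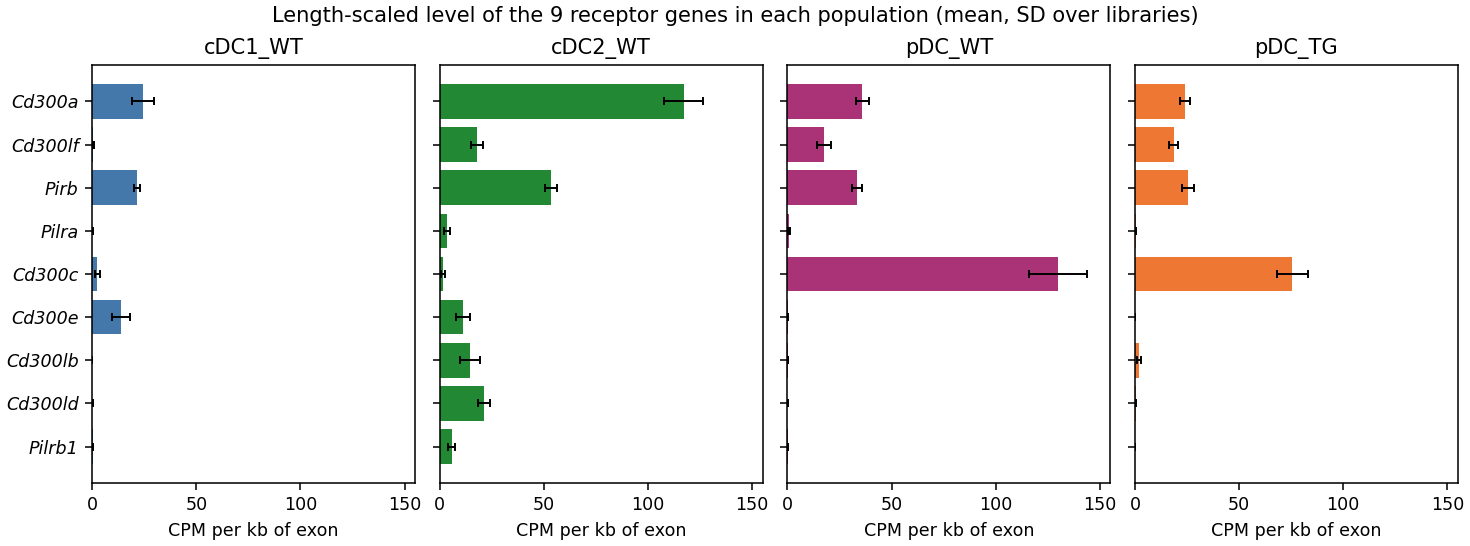
Mean CPM per kilobase of annotated exon (x axis; bars with SD over libraries) of the 9 genes in each population. Cd300a led in cDC1_WT and cDC2_WT, at 24.4 and 117 CPM per kb, and Cd300c in pDC_WT and pDC_TG, at 130.0 and 75.5 CPM per kb.

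The comparison of pDC_TG with pDC_WT asks how the receptors of pDC differ when Cre is present on the loxP-flanked Irf8 background. In pDC_TG 2 genes were higher, Cd300lb and Cd300ld, 2 were lower, Cd300a and Pirb, and 5 were not called. The background was 14.8% of all tested genes called in either direction, with 7.72% higher and 7.04% lower. The median log2FC of the 9 was -0.59 beside 0.00 for all tested genes. The libraries of the 2 groups did not overlap for 4 of the 9, Cd300a, Cd300c, Cd300lb and Pirb, where 9.71% of all tested genes were without overlap. Cd300ld and Cd300e passed the filter mainly through other populations. They reached its level in 1 pDC_WT library each, and in 2 and 0 of the 4 pDC_TG libraries. With the 2 pDC groups fitted alone, 7 of the 9 genes were tested, of which 1 was higher and 3 were lower. The counts and the median of the 9 are therefore given as a description.

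Of the inhibitory receptors, Cd300a was at 113, 107, 104 and 129 CPM in the pDC_TG libraries, all below the lowest pDC_WT library at 153 CPM. The mean of 113 ± 11.1 CPM was 66.6% of the WT level (log2FC -0.59, SE 0.12, adjusted p = 0.000927). Pirb was at 116, 130.0, 99.0 and 112 CPM, again all below the lowest pDC_WT library at 140.4 CPM. Its mean of 114 ± 12.7 CPM was 76.4% of the WT level (log2FC -0.39, SE 0.08, adjusted p = 0.000474). Neither fall was called against a 1.5-fold null.

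Cd300lf, the third abundant inhibitory receptor of pDC, was at 79.5, 95.5, 98.8 and 107 CPM in pDC_TG, within the pDC_WT range of 75.3 to 126 CPM. Its log2FC was 0.08 with a 95% interval from -0.35 to 0.52 (adjusted p = 0.895). Pilra was at 1.15, 0.0756, 0.832 and 1.98 CPM, of which 1 lay inside the pDC_WT range (log2FC -1.20, 95% interval from -2.42 to 0.03, adjusted p = 0.232). The 4 inhibitory genes together had 2 falls and 2 without a call, where 7.04% of all tested genes were called lower.

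Of the receptors that signal through adaptors, Cd300c was at 71.4, 82.2, 78.3 and 90.0 CPM in pDC_TG against 116 to 157 CPM in pDC_WT. The groups did not overlap and the pDC_TG mean of 80.5 ± 7.78 CPM was 58.1% of the WT mean, yet the fit over all 4 populations did not call it (log2FC -0.78, SE 0.33, adjusted p = 0.123). That fit takes 1 spread per gene from all 28 libraries. With the 12 pDC libraries fitted by themselves it was called (log2FC -0.78, adjusted p = 5.95e-05). It remained the first of the 9 genes per kilobase in pDC_TG, at 75.5 ± 7.30 CPM per kb, ahead of Pirb at 25.5 ± 2.84 and Cd300a at 23.9 ± 2.34 CPM per kb.

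Cd300lb rose from a near-absent level. Its pDC_TG libraries were at 1.80, 4.43, 8.79 and 7.21 CPM, while 4 of the 8 pDC_WT libraries held no count and the highest, replicate 8, stood at 1.80 CPM, just under the lowest pDC_TG library. The mean of 5.56 ± 3.08 CPM was 15.9-fold that of pDC_WT, 0.349 ± 0.635 CPM (log2FC 3.97, SE 0.69, adjusted p = 0.000102). It was called in all 22 alternative analyses of this comparison, with a log2FC from 3.13 to 6.95, and without pDC_WT replicate 8 it was 5.30. The pDC_TG level remained below that of cDC2_WT, at 13.2% of it (log2FC -2.92, SE 0.74, adjusted p = 0.00163).

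Cd300ld also rose, from 0.0712 ± 0.147 to 0.720 ± 0.872 CPM, but unevenly: 2 pDC_TG libraries were at 1.02 and 1.82 CPM and the others at 0.0384 CPM and 0. The groups overlapped, the call (log2FC 3.31, SE 0.98, adjusted p = 0.0190) was lost without pDC_TG replicate 2 (3.12, adjusted p = 0.0575) or replicate 4 (2.25, adjusted p = 0.234), the value was 5.07 without pDC_WT replicate 6 (adjusted p = 0.00287), and pDC_TG replicate 4 is the library with the highest neutrophil markers. The 2 genes are on the same strand of the same cluster and both were highest in cDC2 among the WT sorts. Over the libraries of each group, Cd300ld had 1.33 reads per read of Cd300lb in cDC2_WT (10843 and 8146 counts), 0.194 in pDC_WT (14 and 72 counts) and 0.130 in pDC_TG (85 and 654 counts). Cd300e, which in cDC2_WT had 4455 counts, had no count in any pDC_TG library.

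For Cd300e this left pDC_TG at least 1088-fold below cDC1_WT and at least 882-fold below cDC2_WT, against a floor of 3 counts over the group. Against pDC_WT, where the counts came from 2 libraries, the same floor gave at least 6.08-fold, or 1.06-fold without pDC_WT replicate 8, which left 5 counts. The difference was not called (adjusted p = 0.0781), though the DESeq2 Wald test called it (adjusted p = 0.00747). Pilrb1 was at 0, 0.0378, 0 and 0.511 CPM in pDC_TG and overlapped pDC_WT (adjusted p = 0.590). Monocyte and macrophage markers, given here because Cd300e and Cd300lb are known from those cells, summed to between 2932 and 4012 CPM in pDC_WT and between 3381 and 4536 CPM in pDC_TG, most of it Ly6c2, at 2373 and 2707 CPM on average, a gene that pDC themselves express. The defining markers Csf1r, at 3.77 and 5.03 CPM, and Adgre1, at 0.559 and 0.357 CPM, were low in both groups. Mertk had no count in pDC_WT and in pDC_TG a mean of 0.624 CPM from 1 library at 2.49 CPM. Of the 14 markers, 8 had a higher mean in pDC_TG, among them Lyz2 (2.81 and 7.91 CPM), Cx3cr1 (4.29 and 7.47 CPM) and Fcgr1 (0.264 and 0.589 CPM). Over the pDC_TG libraries Lyz2 ran from 0 to 26.3 CPM (SD 12.3), so its mean rested largely on the highest library. The other 6 markers had a lower mean in pDC_TG, among them Cd14 (8.29 and 4.31 CPM), Vcam1 (4.38 and 2.63 CPM) and C1qb (0.775 and 0.173 CPM). Of the 14, 1 was called higher and 2 were called lower (7.72% and 7.04% of all tested genes). The cDC2 markers summed to between 1557 and 2151 CPM in pDC_WT and between 2079 and 2326 CPM in pDC_TG. Of these 10 markers, 5 had a higher mean in pDC_TG: Itgam (0.401 and 31.9 CPM), Tmem176a (17.6 and 110.3 CPM), Tmem176b (38.4 and 242 CPM), Ltb (145 and 578 CPM) and Irf4 (146 and 434 CPM). The other 5 had a lower mean, among them Cd4 (777 and 469.8 CPM), Sirpa (425 and 299.6 CPM) and Clec10a (251 and 35.2 CPM). The part of these markers in the levels of Cd300lb and Cd300ld was not tested.

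**Figure D3:**
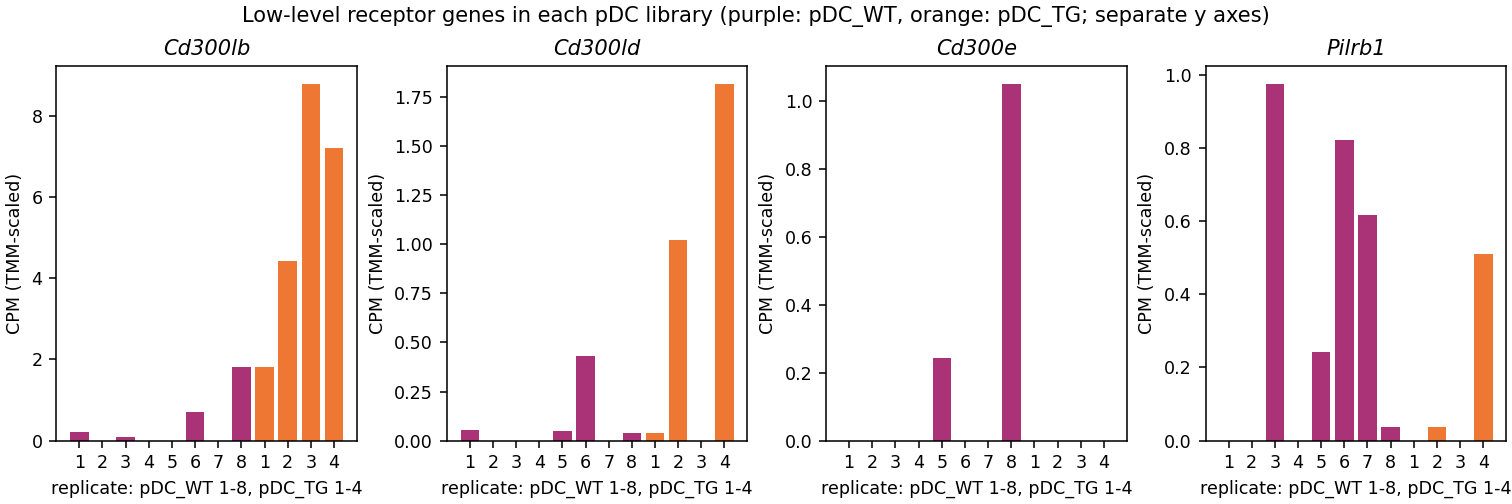
CPM of 4 receptor genes of low level (y axis, a separate linear scale per panel) in each of the 8 pDC_WT and 4 pDC_TG libraries (x axis, replicate number). Cd300lb was present in all 4 pDC_TG libraries, Cd300ld above 1 CPM in 2 of them, Cd300e in none, and Pilrb1 did not separate the groups.

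**Figure D4:**
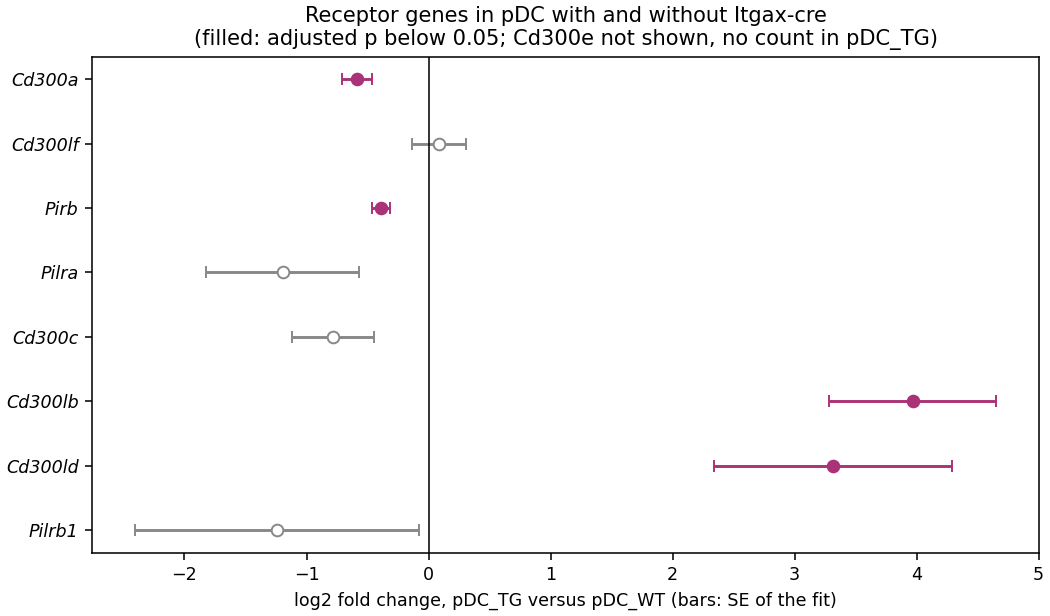
Log2 fold change of pDC_TG over pDC_WT (x axis, bars of 1 SE of the fit) for 8 of the 9 genes, filled where the adjusted p was below 0.05. Cd300lb and Cd300ld lay to the right, at 3.97 and 3.31, and Cd300a and Pirb to the left, at -0.59 and -0.39.

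The pDC_TG libraries were also compared with each conventional population. Against cDC1_WT 5 genes were higher, 1 lower and 3 not called, with a background of 53.6% called, 27.1% as higher and 26.6% as lower. Against cDC2_WT 1 was higher, 7 lower and 1 not called, with a background of 48.2%, 24.3% as higher and 23.9% as lower. The medians were 1.94 and -2.92 beside 0.00 and 0.01 for all tested genes, and 4 and 8 of the 9 genes had no overlap between libraries, against backgrounds of 36.5% and 33.2%. These comparisons share the pDC_TG libraries with the one above. Cd300ld, Pilrb1 and Cd300e reached the filter's level in 2, 1 and 0 of the 4 pDC_TG libraries. Cd300e was the 1 gene called lower than in cDC1_WT. The limit of the filter given above therefore holds for both comparisons. The Cd300a level of pDC_TG, 113 ± 11.1 CPM, lay beside that of cDC1_WT, 116 ± 24.3 CPM (log2FC -0.03, 95% interval from -0.27 to 0.20, adjusted p = 0.851), with overlapping libraries and a sign that changed with the scaling. Pirb was still higher in pDC_TG than in cDC1_WT (log2FC 0.24, SE 0.08, adjusted p = 0.00755), though not without pDC_TG replicate 2 (0.19, adjusted p = 0.0572).

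The genes that carry the signals of these receptors were taken from lists of adaptors, kinases, phosphatases, ligands and relatives. Of 11 ITAM adaptors and kinases described here, 1 was called in pDC_TG against pDC_WT, where 14.8% of all tested genes were called. Tyrobp, which encodes DAP12, fell from 1556 ± 292 CPM to 924 ± 271 (log2FC -0.75, SE 0.16, adjusted p = 0.00118). Fcer1g, the Fc receptor γ chain, was at 467 ± 60.9 and 359.9 ± 78.0 CPM (log2FC -0.38, adjusted p = 0.147), and Card9 at 0.683 ± 0.467 and 1.93 ± 0.383 CPM (log2FC 1.47, adjusted p = 0.0638). The median log2FC of the 11 was -0.0046 beside 0.00 for all tested genes.

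Among the WT sorts, 7 of the 11 were lower and 2 higher in cDC1_WT than in cDC2_WT (23.4% and 22.8% of all tested genes), and again 7 lower and 2 higher than in pDC_WT (30.3% and 30.6%). Fcer1g was at 29.6 ± 8.49 CPM in cDC1_WT against 596 ± 71.7 CPM in cDC2_WT, Fgr at 56.1 ± 13.1 against 691 ± 103 CPM, and Syk, the kinase that binds phosphorylated ITAMs, at 48.0 ± 11.0 against 178 ± 27.0 CPM (log2FC -4.33, -3.62 and -1.89; adjusted p = 4.57e-20, 2.97e-20 and 2.24e-13). Tyrobp was highest in pDC_WT, with 606 ± 108 CPM in cDC2_WT and 283 ± 40.1 CPM in cDC1_WT. In cDC2_WT 3 of the 11 were higher and 4 lower than in pDC_WT (28.8% and 28.3% of all tested genes). Lyn, the kinase that phosphorylates both kinds of motif, was higher in cDC2_WT at 757 ± 94.8 against 471 ± 45.6 CPM (log2FC 0.68, adjusted p = 3.07e-09).

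Of 9 phosphatases and regulators of the inhibitory arm, none was higher and 2 were lower in pDC_TG (7.72% and 7.04% of all tested genes). Ptpn6, which encodes SHP-1, fell to 640.3 ± 76.6 from 948 ± 82.5 CPM in pDC_WT (log2FC -0.57, SE 0.10, adjusted p = 8.97e-05) and Dok1, an adaptor that limits Ras signalling, to 16.6 ± 6.30 from 25.4 ± 7.59 CPM (fold change -0.61 on the log2 scale, SE 0.21, adjusted p = 0.0421). Ptprc, which encodes CD45, was at 449 ± 101 and 379 ± 70.5 CPM (log2FC -0.24, adjusted p = 0.234), and Dok2 at 0.880 ± 0.747 and 3.04 ± 2.51 CPM (1.78, adjusted p = 0.352). The median was -0.20 beside 0.00. In cDC1_WT, Ptpn6 was at 218 ± 30.1 CPM, against 790.2 ± 71.8 CPM in cDC2_WT (log2FC -1.86, SE 0.08, adjusted p = 4.13e-18), while Inpp5d, which encodes the lipid phosphatase SHIP-1, was higher in cDC1_WT at 615 ± 113 against 371 ± 52.2 CPM (0.73, adjusted p = 1.05e-05). Across this list 5 genes were higher and 2 lower in cDC1_WT than in pDC_WT, 6 higher and 1 lower in cDC2_WT than in pDC_WT, and 2 higher and 4 lower in cDC1_WT than in cDC2_WT, where 60.9%, 57.1% and 46.2% of all tested genes were called.

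Of 9 tested genes among reported protein ligands of the receptors, none was higher and 1 was lower in pDC_TG (7.72% and 7.04% of all tested genes). Havcr1 encodes TIM-1, a phosphatidylserine receptor that CD300b binds, and fell to 59.0 ± 3.46 CPM in pDC_TG from 198 ± 22.2 (log2FC -1.75, SE 0.44, adjusted p = 0.00559). It was almost confined to pDC among the WT sorts, at 0.475 ± 0.559 CPM in cDC1_WT and 0.0755 ± 0.148 CPM in cDC2_WT. The PIR-B ligand genes H2-D1, at 2334 ± 348 and 1985 ± 122 CPM, and Angptl2, at 2.49 ± 1.16 and 11.8 ± 3.68 CPM, were not called (adjusted p = 0.0601 and 0.131). Pianp, which encodes a PILRα ligand, was at 67.8 ± 9.76 CPM in cDC1_WT, 1.86 ± 1.25 CPM in cDC2_WT and without a count in pDC_WT, while Pilra was lowest in cDC1_WT (cDC1_WT against cDC2_WT log2FC 5.19, SE 0.32, adjusted p = 2.09e-12). The other WT comparisons had 3 genes higher and 5 lower in cDC1_WT than in pDC_WT, 3 higher and 4 lower in cDC2_WT than in pDC_WT, and 3 higher and 3 lower in cDC1_WT than in cDC2_WT, beside 60.9%, 57.1% and 46.2% of all tested genes called in either direction.

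The 23 listed symbols of relatives in the same receptor families led to 16 distinct rows, since 6 had no row and 2 were names of the same row. Of these rows 9 were tested, with 1 higher and 1 lower in pDC_TG (7.72% and 7.04% of all tested genes). Lair1, an inhibitory collagen receptor, fell to 444 ± 32.1 CPM in pDC_TG from 1056 ± 83.7 (log2FC -1.25, SE 0.15, adjusted p = 4.17e-07). Lilrb4a, an inhibitory receptor of the LILR family, rose to 12.3 ± 2.86 CPM in pDC_TG from 6.24 ± 1.78 (log2FC 0.98, SE 0.25, adjusted p = 0.00659). Pira2, an activating partner of PIR-B, was at 3.46 ± 1.53 and 6.27 ± 1.23 CPM (log2FC 0.85, adjusted p = 0.148), with 88.3% of its 75-base windows shared with other genes. Against cDC2_WT, 8 of the 9 relatives were lower and none higher in cDC1_WT (23.4% and 22.8% of all tested genes), and 7 were higher and 1 lower in cDC2_WT than in pDC_WT (28.8% and 28.3%). The one lower in cDC2_WT than in pDC_WT was Lair1, at 202 ± 14.6 CPM. In cDC1_WT against pDC_WT, 1 relative was higher and 5 were lower (30.6% and 30.3% of all tested genes), Lair1 among them at 12.5 ± 3.72 CPM (log2FC -6.40, SE 0.15, adjusted p = 3.25e-25). The median log2FC of the 9 relatives was 0.00 in pDC_TG against pDC_WT, -1.16 in cDC1_WT and 2.82 in cDC2_WT against pDC_WT, and -4.02 in cDC1_WT against cDC2_WT. Some of these relatives were near absent outside cDC2_WT. Pilrb2 was at 9.46 CPM there, 0.348 in cDC1_WT and 0.118 in pDC_WT, and Pira6 at 13.1, 0.0968 and 0.574 CPM. Genes that meet the filter mainly through cDC2_WT tend to be higher there. The relatives' counts and medians that involve cDC2_WT are therefore given as a description.

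**Figure D5:**
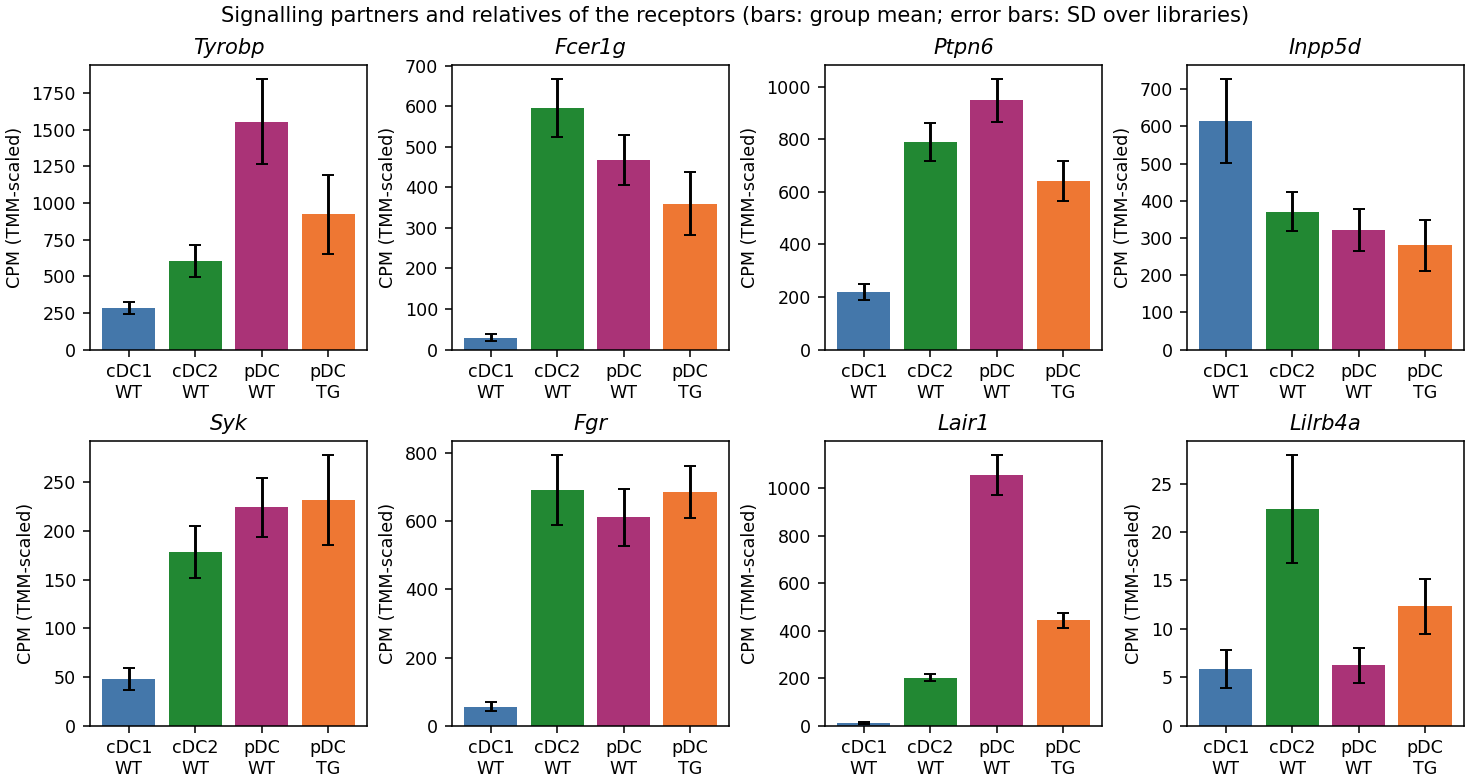
Mean CPM (y axis, a separate linear scale per panel; error bars, SD over libraries) of 8 signalling partners and relatives in the 4 populations (x axis). Tyrobp, Ptpn6 and Lair1 were lower and Lilrb4a higher in pDC_TG than in pDC_WT, and Fcer1g, Fgr and Syk were lowest in cDC1_WT.

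The genes whose log2(CPM + 1) was most like that of a receptor over the 28 libraries are given as a description, since the libraries share groups, depth and scaling. Nearest to Cd300c were Dap (Pearson r = 0.987), Lgals1 (0.986) and Ech1 (0.984), which were high in both pDC groups. Nearest to Cd300e were Tlr13 (0.988), Ckb (0.985) and Tgfbi (0.984), high in both cDC groups. Nearest to Cd300lf were Ctsa (0.989), the ITAM-arm kinase gene Fgr (0.987) and Cd7 (0.984), all low in cDC1_WT. Nearest to Cd300lb were S100a4 (0.977), Ms4a6c (0.975) and Pglyrp2 (0.972), which like Cd300lb were highest in cDC2_WT and had a higher mean in pDC_TG than in pDC_WT: 27.1 against 5.64 CPM, 126 against 38.5 CPM and 4.05 against 0.355 CPM. Nearest to Cd300ld were Gm9733 (0.990), Trem3 (0.989) and Clec4a1 (0.989). For Cd300a these were Clec4a3 (0.955), Pira6 (0.955) and Clec4a4 (0.952), for Pirb Ptpro (0.960), Rras2 (0.957) and Fbrsl1 (0.954), for Pilra Prkcb (0.938), Tlr5 (0.935) and Rras2 (0.935), and for Pilrb1 Cd209b (0.975), Fcgr3 (0.969) and Clec4a2 (0.968). Rras2 stood near both Pirb and Pilra, whose own correlation was 0.924.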

How the data were processed

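RNA from sorted splenic dendritic cells (28 libraries) was amplified with SMART-Seq v4 and sequenced as single 75-base reads on 2 flow cells, per the labels' protocols; no strand and no molecular identifier is recorded. FastQC 0.11.4, Trimmomatic 0.35, TopHat2 2.1.0, SAMtools 0.1.18 and mm10 are named, per the submitters' processing notes; which counter and annotation were used is not stated there. The deposited values are raw whole-number counts for each gene symbol, as the authors left them. Reads outside genes made up 8.23% to 18.7% of a library; summary lines were left out.

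Computed here, in R 4.3.3: TMM scaling, filterByExpr (minimum count 10, total 15), a robust edgeR 4.0.16 quasi-likelihood fit of all libraries, and Benjamini-Hochberg adjustment. Library totals above set the counting precision; the floor of 3 counts covers counting error only. P-values measure the spread between libraries, labelled as separate mice. The test was checked on simulated data. Lengths are GENCODE M21 exon unions; promoters come from RefSeq (GRCm38.p6). The replicate numbers were not taken as pairs, and the main fit treats WT libraries of different sorts as independent.

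The 9 genes, lists and tests were chosen with earlier results of these data known. Named genes are the 9, Irf8, in each list up to 4 genes with the smallest adjusted p in pDC_TG against pDC_WT and up to 3 between WT groups (a selection of the latter is printed), and the 3 nearest genes by correlation. Symbols of 4 relatives were matched by older names. Alternatives covered scaling, filter, DESeq2 1.42.0, the groups fitted, WT replicates 1 to 4 or 5 to 8, the replicate number as a block, a 1.5-fold null and each library left out. Leaving out pDC_WT replicates 6 and 8 together was added after the data were seen. Of the list of ITAM adaptors and kinases, 1 gene is not reported here and is left out of that list's counts.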

Additional observations from a re-analysis of the deposited data

Results flagged for a closer look

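In 6 of 36 groups (9 genes in 4 populations), the highest library stood apart by more than a 95% limit for its group size. For normally distributed values, chance gives about 1 in 20. That rate does not hold for groups with counts near 0, here Cd300e, Cd300lb and Cd300ld in pDC_WT and Pilrb1 in pDC_TG. Cd300e in pDC_TG held no count and could not be checked. In pDC_WT, replicate 8 was highest for 3 genes: Cd300a at 201.1 CPM with the next library at 174 CPM, Cd300e at 1.05 CPM (28 counts) with the next at 0.243 CPM, and Cd300lb at 1.80 CPM (48 counts) with the next at 0.704 CPM. For Cd300ld, pDC_WT replicate 6 was highest at 0.430 CPM (11 counts) with the next at 0.0537 CPM. In cDC2_WT, replicate 2 held 73.2 CPM of Cd300lb with the next library at 42.3 CPM. In pDC_TG, replicate 4 held 0.511 CPM of Pilrb1 (16 counts) with the next at 0.0378 CPM. Without pDC_WT replicates 6 and 8 together, pDC_TG against pDC_WT still had 2 of the 9 genes higher and 2 lower.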

How the results depend on the processing

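Of 1404 fold changes recomputed under the alternatives, 1344 kept their direction and their side of the threshold, and 373 of 378 levels moved by less than 1 SD. Of 282 counts of called genes, 241 equalled the value reported, 21 differed by at most 1.5 times and 20 by more. For pDC_TG against pDC_WT, the number of genes called higher fell from 2 to 1 with DESeq2, with the 2 groups alone, where 7 of the 9 genes were tested and Cd300ld was not, with WT replicates 5 to 8 and with a 1.5-fold null. The number called lower rose from 2 to 3 in the first 3 of these and fell to 0 with the 1.5-fold null; leaving out 1 library gave 1 to 2 higher and 2 lower. For cDC1_WT against pDC_WT, 1 to 2 were higher when 1 library was left out, and 2 without pDC_WT replicates 6 and 8. For cDC1_WT against cDC2_WT, the 1 higher gene (Cd300c) fell to 0 with the 2 groups alone, WT replicates 1 to 4 or a 1.5-fold null, and to between 0 and 1 when 1 library was left out. For pDC_TG against cDC1_WT, 1 to 2 were lower when 1 library was left out. With total counts alone, levels moved by more than 1 SD for Cd300a, Cd300c and Pirb in pDC_TG (126, 89.4 and 127 CPM) and for Pirb in cDC1_WT and pDC_WT (87.5 and 161 CPM).

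Signs changed only for log2FC values that were not called. Cd300e in pDC_TG against pDC_WT was 0.00 with WT replicates 1 to 4, since neither group then held a count. Pilrb1 in cDC1_WT against pDC_WT was -0.91 with WT replicates 5 to 8, and -0.11 to 0.94 with 1 library left out. Cd300lf in cDC2_WT against pDC_WT was -0.12 with total counts, -0.022 with WT replicates 5 to 8, and -0.036 to 0.12 with 1 library left out. Cd300a in pDC_TG against cDC1_WT was 0.26 with total counts, 0.16 with WT replicates 1 to 4, and -0.11 to 0.023 with 1 library left out. Cd300lf in pDC_TG against cDC2_WT was -0.0039 to 0.14 with 1 library left out. Apart from the missing counts of Cd300e, the cause was not tested.

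With the replicate number as a block, 1 gene was called higher and 2 lower in pDC_TG against pDC_WT, as Cd300ld missed the threshold (log2FC 3.27, adjusted p = 0.0645), and the signs of Cd300lf against pDC_WT (-0.055) and cDC2_WT (-0.084) and of Cd300a against cDC1_WT (0.068) turned. Same-numbered libraries were not taken as pairs. Their deviations correlated at -0.04 to 0.04 in the 4 pairs of pDC_TG and pDC_WT. Between WT groups r ran from 0.049 to 0.22 and was over 0.1 in 5 to 7 of 8 pairs, and libraries correlated best with their own number in 8 of 8 pairs of cDC2_WT with cDC1_WT or pDC_WT and in 7 of 8 pairs of cDC1_WT with pDC_WT, a hint from the data and not the design. Depth limits Cd300e, Cd300ld and Pilrb1 in pDC, whose groups held 0 to 85 counts.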
